A study of Mus musculus and Homo sapiens with 18 samples.

Results

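ZFP28 and 9 zinc finger genes on the same stretch of the long arm of human chromosome 19 were followed in HLE-B3, an immortalized human lens epithelial cell line, with and without QKI, the RNA-binding protein Quaking. The 10 genes are ZNF582, ZNF583, ZNF667, ZNF471, ZFP28, ZNF470, ZNF71, ZNF835, ZIM2 and PEG3, in the order of their start sites from the centromere to the telomere, out of 60880 genes in the HLE-B3 table. They were selected by symbol because ZFP28 had been seen to differ between QKI KO and WT HLE-B3 cells, so their HLE-B3 values are a description of that selection and carry no test. The question was whether ZFP28 was turned on alone or together with its cluster.

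RNA-seq was available for 3 systems with 3 libraries in each group. In HLE-B3, WT cells were compared with cells in which QKI had been knocked out by lentiviral CRISPR-Cas9 and puromycin enrichment (QKI KO); the number of clones behind the KO cells is not given in the sources used here. Mouse lenses came from C57BL/6 Ctrl (Nestin-CreERT2; QkL/+, with 1 floxed allele) and Qk-iCKO (Nestin-CreERT2; QkL/L) mice at P17-19, all carrying tamoxifen-inducible Cre under the Nestin promoter and all injected with tamoxifen at P7 and P8. NLPCs, lens progenitor-like cells differentiated from neural stem cells with Noggin and then bFGF, BMP4 and BMP7, were labelled WT or Qk-/-, and in the latter 4-hydroxytamoxifen was used to delete Qk from Nestin-CreERT2; QkL/L cells. The study describes its animal and cell line work as independently replicated and the lenses as coming from separate mice. The labels tie no single HLE-B3 or NLPC library to a culture or clone, so p-values there measure the spread between these libraries, which may be technical.

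Total counts ran from 69190864 to 81384471 in HLE-B3, from 10319320 to 16425331 in the lens and from 28154202 to 68243360 in the NLPCs. QKI had 21519, 19137 and 18447 reads in WT HLE-B3 libraries 1 to 3 and 7346, 7273 and 7522 in QKI KO libraries 1 to 3. It was lower in all 3 KO libraries, with a log2 fold change of −1.34 (SE 0.054; edgeR's quasi-likelihood test, adjusted p = 1.85e-11). Lens Qk did not pass the test (−0.31, SE 0.14, adjusted p = 0.2 in edgeR), and in the NLPCs Qk was higher, not lower, in the libraries labelled Qk-/- (0.41, SE 0.091, adjusted p = 0.027 in edgeR), so NLPC directions are stated for labels only. The loxP sites flank exon 2 of Qk, and counts over the whole gene include reads from the other exons, so these counts need not show the deletion. Of 12 lens markers, 8 had enough reads to be tested in HLE-B3 and 4 had at most 12 reads in every library. PAX6, the eye master regulator, had between 8748 and 12700 reads, while CRYAA, a lens crystallin, was at 0 in all 6 libraries. Of the 8 tested, CRYAB was called higher in QKI KO cells (0.85) and MAF (−4.29), PROX1 (−1.06), CDH2 (−0.75) and VIM (−0.13) lower; the part of these shifts in the members' values was not tested.

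Most of these genes encode C2H2 zinc finger proteins, and many of that class on chromosome 19 carry a KRAB domain, which recruits the corepressor TRIM28 and histone methyltransferases such as SETDB1 to chosen DNA sequences. Such genes arose by tandem duplication and lie in clusters, so neighbours often resemble each other in sequence and in chromatin. PEG3, by contrast, is an imprinted gene expressed from the paternal copy, and ZIM2 shares its first exons and its imprinted control. Promoters rich in CpG, the dinucleotide that DNA methylation acts on, are common in this family.

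The start regions of 3 genes close to ZFP28 are shown because they behaved differently while lying side by side: ZNF471 stayed near 0, ZNF470 rose from a low level and ZNF71 was expressed in both groups. Each runs 5′ to 3′ on the gene's own strand, from 250 bases before to 50 bases after the start of the canonical transcript in GENCODE for GRCh37, with CpG in capitals. All 3 genes are on the plus strand, at chr19:57018974-57019273 for ZNF471, chr19:57078587-57078886 for ZNF470 and chr19:57106420-57106719 for ZNF71.
ZNF471: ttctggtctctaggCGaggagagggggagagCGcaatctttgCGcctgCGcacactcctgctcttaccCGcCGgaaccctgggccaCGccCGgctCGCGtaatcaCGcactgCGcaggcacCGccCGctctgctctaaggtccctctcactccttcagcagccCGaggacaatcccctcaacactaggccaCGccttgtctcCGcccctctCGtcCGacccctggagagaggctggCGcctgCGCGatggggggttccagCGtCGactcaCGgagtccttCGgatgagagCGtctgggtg
ZNF470: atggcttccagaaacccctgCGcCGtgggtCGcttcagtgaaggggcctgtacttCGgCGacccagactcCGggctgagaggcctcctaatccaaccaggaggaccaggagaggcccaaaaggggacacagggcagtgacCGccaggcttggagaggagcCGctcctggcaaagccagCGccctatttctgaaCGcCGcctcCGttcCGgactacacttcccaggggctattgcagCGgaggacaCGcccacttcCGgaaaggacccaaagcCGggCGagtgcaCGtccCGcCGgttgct
ZNF71: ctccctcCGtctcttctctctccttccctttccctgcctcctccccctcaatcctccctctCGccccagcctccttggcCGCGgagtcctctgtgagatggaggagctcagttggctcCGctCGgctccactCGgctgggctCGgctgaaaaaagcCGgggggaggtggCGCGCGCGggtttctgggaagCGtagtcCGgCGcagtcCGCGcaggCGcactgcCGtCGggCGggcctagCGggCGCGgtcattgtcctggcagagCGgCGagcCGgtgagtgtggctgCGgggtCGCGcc

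Of these 3, ZNF71 held the most CpG, 31, against 27 in ZNF471 and 21 in ZNF470, while the median of 19874 promoters of protein-coding genes was 23. ZNF667, which had no read in any library, held 42, and 91.3% of those promoters held fewer. The shared start region of PEG3 and ZIM2 held 16. The GC box letters GGGCGG (or CCGCCC on the other strand), which 61.4% of promoters hold, occurred 2 times in ZNF471, 1 time in ZNF71 and not in ZNF470. The start regions of 9 genes were examined, with PEG3 and ZIM2 sharing theirs, and none held the letters TATAAA (or TTTATA). Of all promoters 9.6% held them, so nothing is read from their absence in so few regions. CpG number did not order these genes by their reads.

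ZFP28 was the gene that went from no read to a clear level. It encodes a KRAB zinc finger protein and lies at chr19:57050317-57068177, with 8 exons in its canonical transcript. It had 0 reads in each of the 3 WT libraries and 322, 396 and 393 reads in QKI KO libraries 1 to 3. The KO libraries held 4.39, 5.73 and 5.37 CPM (counts per 1000000 counts of the library, with library sizes adjusted by TMM), a mean of 5.16 ± 0.692 (SD, n = 3). Against a floor of 3 reads in each WT library this was at least 129-fold higher. None of the 50-base stretches of its transcripts occurred in the transcripts of another gene, so reads of a related zinc finger could not be assigned to it by exact sequence identity over that length.

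ZNF470, the next gene towards the telomere, also encodes a KRAB zinc finger protein and rose from a low level. It starts 28.5 kb beyond ZFP28 and lies at chr19:57078837-57100279. WT libraries 1 to 3 had 18, 34 and 21 reads and QKI KO libraries 1 to 3 had 97, 101 and 73. Mean CPM went from 0.326 ± 0.126 to 1.26 ± 0.239 (SD, n = 3 each), a log2 fold change of 1.95 (SE 0.43), and the groups did not overlap.

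ZNF71, a C2H2 zinc finger gene, starts 56.4 kb beyond ZFP28, lies at chr19:57106668-57137849 and was already expressed in WT cells. Its reads were 711, 731 and 548 in WT libraries 1 to 3 and 910, 798 and 917 in QKI KO libraries 1 to 3. In CPM the means were 8.79 ± 1.19 and 12.2 ± 0.53 (SD, n = 3 each), and the log2 fold change was 0.47 (SE 0.12), with no overlap between groups. Per kb of exon, the KO means were 1.98 CPM for ZNF71, 0.741 CPM for ZFP28 and 0.130 CPM for ZNF470. ZFP28 thus stood between its neighbours in level, although it was the one that started from 0.

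The 4 members towards the centromere stayed at or near 0 in both groups. ZNF471, a KRAB zinc finger gene with its start at −31.1 kb from that of ZFP28, had 8 reads in WT library 3 and 0 in the other 5 libraries. ZNF667 had 0 reads in all 6 libraries. ZNF583 had 1 read in WT library 3, 8 in QKI KO library 1, 1 in QKI KO library 3 and 0 elsewhere. ZNF582 had 6 reads in WT library 2 and 0 in the other 5, and 33.2% of its 50-base stretches also occur in the transcripts of an overlapping readthrough gene. These few reads fell in both groups, and no difference was detectable for these genes at this depth.

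The 3 members farther towards the telomere were at or near 0 as well. ZNF835, which starts 132.8 kb beyond ZFP28, had 0 reads in all 6 libraries. PEG3 had 4 reads in QKI KO library 2 and 0 elsewhere, and ZIM2 had 0 reads throughout. PEG3 and ZIM2 start 301.8 kb beyond ZFP28. Of the 50-base stretches of PEG3, 48.4% also occur in transcripts of other genes, namely ZIM2 and the unnamed gene ENSG00000286125, and of those of ZIM2 50.3% occur in PEG3 or that gene, so reads of these genes can be split or lost in the counting.

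**Figure D1:**
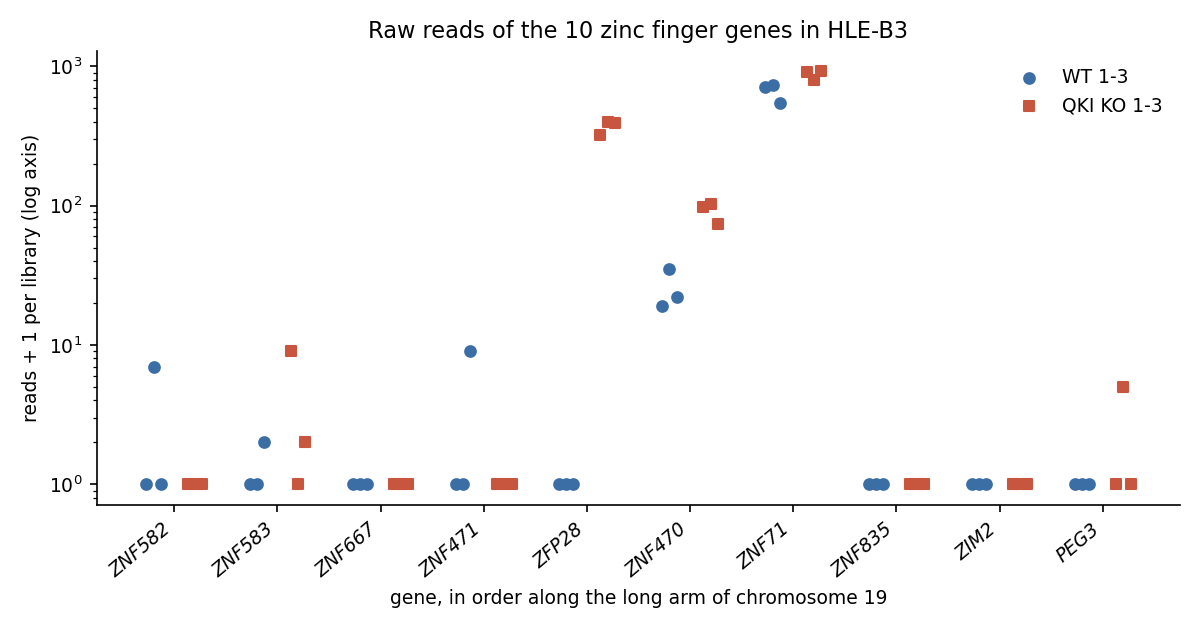
Raw reads plus 1 in each HLE-B3 library (log axis) for the 10 zinc finger genes in their order along chromosome 19, with WT libraries as circles and QKI KO libraries as squares. ZFP28 sits at 0 reads in WT and between 322 and 396 in QKI KO, ZNF470 and ZNF71 are separated between the groups, and the other 7 genes reach at most 8 reads.

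Only 3 of the 10 members had enough reads to be tested, and all 3 were called higher in QKI KO cells by edgeR, with none lower. In HLE-B3 as a whole, 17% of 19049 tested genes were called higher and 16.3% lower. Since the members were chosen on this contrast, nothing is read from 3 of 3, and the 7 members that were not tested all had at most 12 reads.

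Of all genes, ZFP28 had the highest level among those that were off in WT and on in QKI KO cells. With at most 3 reads in every WT and at least 30 in every KO library, 6 genes were found, and ZFP28 was the one on chromosome 19. The next was NCAM2, a neural cell adhesion molecule gene on chromosome 21, with 0 reads in each WT library and 269, 340 and 274 reads in the KO libraries. The others were PLCE1-AS1 and LINC00707 on chromosome 10, MYH2 on chromosome 17 and PTCSC3 on chromosome 14, at mean KO levels of 1.20, 0.897, 0.844 and 0.682 CPM. In the opposite direction 16 genes were found, none of them on chromosome 19.

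NCAM2 was also the gene whose values lay closest to those of ZFP28 over the 6 libraries, at a Euclidean distance of 0.618 in log2 CPM. The following 4 were ZNF717, PLCE1-AS1, TSSC2 and LRRC7, at distances of 3.94, 3.97, 4.06 and 4.23. ZNF717, another KRAB zinc finger gene, had 1, 1 and 8 reads in WT libraries 1 to 3 and 111, 124 and 92 in the KO libraries. NCAM2 was thus much nearer to ZFP28 than the other 4.

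The non-coding genes around ZFP28 had few reads. An antisense gene that overlaps the 3′ part of ZFP28, AC005498.3, had 6, 0 and 8 reads in WT libraries 1 to 3 and 0 in every KO library. AC005498.2, which lies just before ZFP28 on the opposite strand, had 0 reads in WT and 12, 2 and 0 reads in KO libraries 1 to 3. The libraries were stranded, but the strand setting of the counting is not given in the sources used here, so reads of ZFP28 and of its antisense partner cannot be told apart. ZNF582-AS1 and ZIM2-AS1 had no read, and ZNF667-AS1 had 4 reads in WT library 2 only. The 2 genes named by clone were chosen after their values were seen.

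The wider neighbourhood leaned upwards in QKI KO cells. Within 1 Mb of ZFP28 the table held 110 genes other than the 10 members, of which 69 had at most 12 reads in every library and 38 were tested. Of these 38, 14 were called higher and 0 lower, against 17% and 16.3% of all genes, and their log2 fold changes ran from −0.50 to 3.38 with a median of 0.32, compared with −0.02 over all genes tested. No other gene of the window went from 0 reads in WT to a level like that of ZFP28. At 0.5 Mb only 5 such genes were tested, and 1 of them, ZNF787, was called higher.

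**Figure D2:**
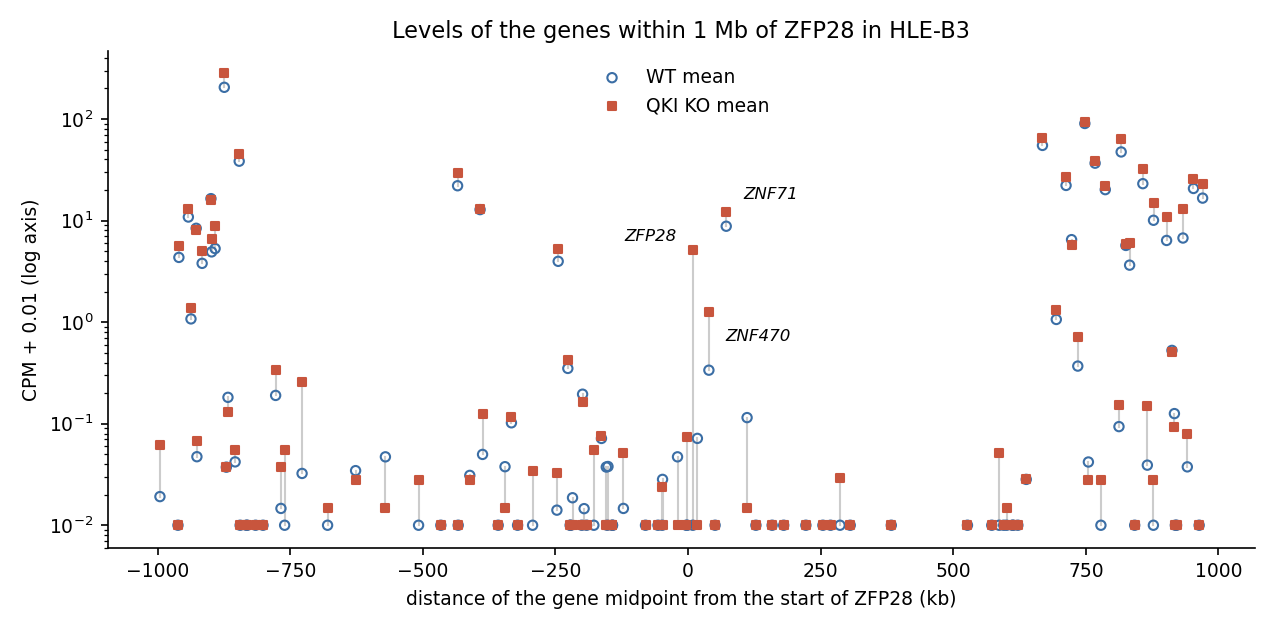
Mean CPM plus 0.01 (log axis) of the 120 genes within 1 Mb of ZFP28 against the distance of the gene midpoint from the start of ZFP28, with WT means as open circles and QKI KO means as squares joined by a line. ZFP28 rises from the bottom of the axis to 5.16 CPM between silent genes on its centromere side and ZNF470 and ZNF71 on its telomere side.

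Within 1 Mb, the neighbours other than members with the largest fold changes lay away from ZFP28. NLRP11, a member of the NLR family, had 1, 4 and 0 reads in WT libraries 1 to 3 and 12, 22 and 19 in QKI KO libraries 1 to 3 (log2 fold change 3.38, SE 1.1). It passed the read filter only through the KO libraries. With at least 10 counts required in every library, 13 neighbours were called higher. ZNF772 had 537, 451 and 532 reads in WT and 987, 998 and 809 in KO libraries (0.95, SE 0.13). ZNF749, with 493, 336 and 606 reads in WT and 783, 772 and 772 in KO, and CCDC106, with 403, 419 and 373 against 664, 519 and 744, had log2 fold changes of 0.76 and 0.75. These 4 genes were called higher, whereas ZNF460-AS1 (0.98) and RFPL4A (0.86) were not called. Just outside this distance, at 1047 kb, the zinc finger gene ZIK1 had 270, 230 and 249 reads in WT and 1604, 1550 and 1410 in KO libraries, a log2 fold change of 2.68 (SE 0.12); it was singled out after its values were seen.

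Zinc finger genes of the window shared the upward lean. Of 26 that are no members, 23 were tested, 10 were called higher and 0 lower, with a median log2 fold change of 0.37. On the centromere side 1 of 9 was called higher, and on the telomere side 9 of 14 were, with all 14 above 0; their medians were 0.37 and 0.36. Over chromosome 19, 80 of 232 tested zinc finger genes other than members were called higher and 23 lower, with a median of 0.13, and on the other chromosomes 57 of 271 were called higher and 59 lower, with a median of 0.02.

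Set against this lean, ZNF470 lay above the median of its surroundings and ZNF71 close to it. The 50 tested non-members nearest to ZFP28, which reach to 1.14 Mb, had a median log2 fold change of 0.35. Of these, NLRP11 (3.38) and ZIK1 (2.68) had larger values than ZNF470. NLRP11 passed the read filter only through the QKI KO libraries, so nothing is read from its place above ZNF470. The value of ZNF470 exceeded that median by 1.60 and that of ZNF71 by 0.12, which is the size of the SE of ZNF71. The difference of each gene from the local median was not tested.

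**Figure D3:**
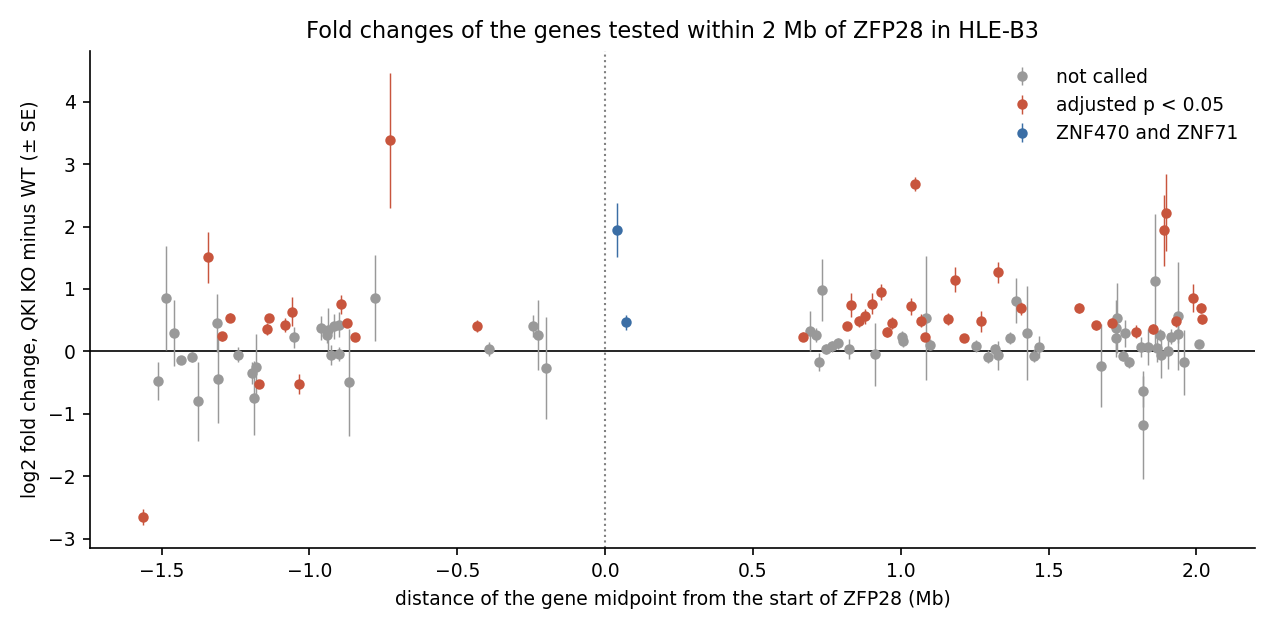
Log2 fold change between QKI KO and WT HLE-B3 cells (± SE) of the tested genes within 2 Mb of ZFP28, without ZFP28 itself, against the distance of the gene midpoint from the start of ZFP28 in Mb. ZNF470 (1.95) lies above most genes but below NLRP11 (3.38), ZIK1 (2.68) and ZNF132 (2.22), and ZNF71 (0.47) lies among them. Of the 114 tested non-members, 42 were called higher and 3 lower.

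The lean extended over most of the long arm of chromosome 19. In bins of 5 Mb, counted without the members, the median log2 fold change was between −0.16 and −0.01 in the 5 bins that start at or before 20 Mb. In the 7 bins from 25 Mb on it was between 0.03 and 0.43, the highest in a bin of only 5 genes. The last bin, which holds ZFP28, had a median of 0.27 over 117 genes, of which 43 were called higher and 3 lower. Whole chromosomes differed too, from −0.437 for chromosome 18 to 0.232 for chromosome 4, with 0.047 for chromosome 19. The part of these regional shifts in the values of ZNF470 and ZNF71 was not tested, and chromosome copy number was not measured in these files.

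**Figure D4:**
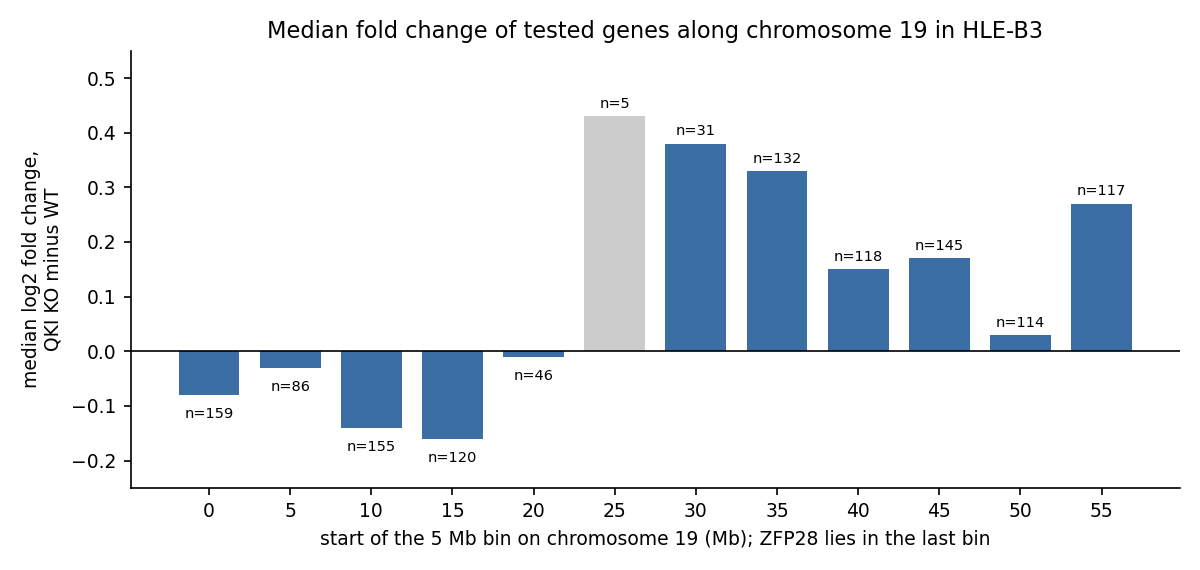
Median log2 fold change between QKI KO and WT HLE-B3 cells of the tested genes other than members in 5 Mb bins along chromosome 19, with the number of genes over each bar and a bin of 5 genes in grey. The bins from 25 Mb on are above 0, including the last bin (0.27), which holds ZFP28.

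The imprinted domain next to the members was nearly silent. MIMT1 had no read, USP29 had 1 and 8 reads in QKI KO libraries 2 and 3, and ZIM3 had 1 read in QKI KO library 2. ZNF264, a KRAB zinc finger gene at the far side of this domain, was expressed, with 4279, 3873 and 4263 reads in WT and 4706, 4496 and 4758 in KO libraries, and was called higher (0.24, SE 0.066). PEG3 and its imprinted partners thus held at most 8 reads in the libraries in which ZFP28 had 322 or more.

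Genes of a list drawn up around the silencing of zinc finger clusters and imprinted domains moved in both directions. The list also held the demethylases TET1, TET2 and TET3 and the factors CTCF and YY1, so its counts are not those of silencing genes alone. Of 31 tested, 6 (19.4%) were called higher and 12 (38.7%) lower, beside 17% and 16.3% of all genes, with a median log2 fold change of −0.11 beside −0.02. CBX1, a heterochromatin protein, had 18440, 14209 and 14989 reads in WT libraries 1 to 3 and 31643, 28750 and 31245 in KO libraries 1 to 3, a rise of 1.02 (SE 0.059). MPHOSPH8, a subunit of the HUSH silencing complex, had 8027, 6940 and 6450 reads in WT and 4610, 4155 and 4837 in KO (−0.58, SE 0.063). The Polycomb subunits EED (0.52) and SUZ12 (0.45) were higher, and the DNA methyltransferase DNMT3B (−0.45) and the demethylase TET3 (−0.45) were lower. TET1 (−0.31) was also called lower and TET2 (0.25) higher. TRIM28 (0.12, SE 0.062) was not called and SETDB1 (−0.16, SE 0.06) was called lower; both were added for their role after the values were seen. DNA methylation and histone marks were not measured in these files.

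In the mouse, the counterparts of these genes lie on chromosome 7, where Zfp28 occupies chr7:6383295-6396915 in GRCm38. These measures were not used to choose the members. The start region of mouse Zfp28, from RefSeq for GRCm38.p6 on the plus strand at chr7:6383068-6383367 and with CpG in capitals, is shown because this gene was read in every mouse library. It held 20 CpG and was 62.7% G or C.
mouse Zfp28: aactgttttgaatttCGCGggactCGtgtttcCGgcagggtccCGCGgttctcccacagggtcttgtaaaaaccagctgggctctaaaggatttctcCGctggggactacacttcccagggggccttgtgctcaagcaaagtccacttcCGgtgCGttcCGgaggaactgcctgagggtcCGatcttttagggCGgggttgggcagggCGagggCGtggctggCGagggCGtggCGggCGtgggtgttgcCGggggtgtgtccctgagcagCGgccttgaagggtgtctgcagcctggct

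Mouse Zfp28 was read in every library of both groups in both mouse systems. In the lens it had 9, 16 and 5 reads in Ctrl libraries 1 to 3 and 19, 10 and 11 in Qk-iCKO libraries 1 to 3, or 0.743 ± 0.399 and 1.08 ± 0.102 CPM (SD, n = 3 each). The groups overlapped, and the log2 fold change of 0.55 (SE 0.46) did not pass the test (edgeR's quasi-likelihood test, adjusted p = 0.478). In the NLPCs it had 2046, 1160 and 1981 reads in WT libraries 1 to 3 and 1950, 1198 and 1883 in the libraries labelled Qk-/-. Mean CPM was 28.7 ± 1.25 and 35.9 ± 4.65 (SD, n = 3 each); the groups did not overlap, but the log2 fold change of 0.32 (SE 0.12) did not pass the test (edgeR, adjusted p = 0.146). No start from 0 like that of human ZFP28 was therefore seen in either mouse system.

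Peg3, silent in HLE-B3, was well expressed in the mouse. Its lens reads were 389, 349 and 486 in Ctrl libraries 1 to 3 and 1481, 449 and 674 in Qk-iCKO libraries 1 to 3. Mean CPM rose from 30.2 ± 4.6 to 67.5 ± 23.7 (SD, n = 3 each) without overlap, a log2 fold change of 1.16 (SE 0.27; edgeR, adjusted p = 0.0333). Qk-iCKO lens 1 was the highest at 90.9 CPM, and without it the change was 0.89 (edgeR, adjusted p = 0.0499). The call was lost without any 1 of the Ctrl libraries 1, 2 and 3 (edgeR, adjusted p = 0.11, 0.126 and 0.0952) or Qk-iCKO library 3 (edgeR, adjusted p = 0.0592), and with total counts in place of TMM (log2 fold change 1.54; edgeR, adjusted p = 0.0613). In the NLPCs Peg3 had 23936, 13272 and 23855 reads in WT libraries and 20770, 10151 and 20361 in those labelled Qk-/-, or 337 ± 20.2 and 354 ± 16 CPM (SD, n = 3 each), which did not pass the test (0.07, SE 0.084; edgeR, adjusted p = 0.623).

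Markers of some cell types differed between the lens groups. Summed myeloid markers (5 genes) were 0.912, 1.21 and 2.20 CPM in Ctrl lenses 1 to 3 and 43.4, 46.7 and 57.4 CPM in Qk-iCKO lenses 1 to 3, with 3 of 3 tested markers higher. Summed pigment cell markers (4 genes) were 6.13, 6.84 and 3.50 CPM in Ctrl and 132, 21.2 and 6.46 CPM in Qk-iCKO lenses 1 to 3, and 0 of 3 tested were called. Retina markers (4 genes) summed to between 1.58 and 400 CPM in Ctrl and between 10.1 and 61.3 CPM in Qk-iCKO lenses, and erythroid markers stayed between 1.21 and 5.83 CPM. Neural stem cell markers (6 genes) summed to between 34.6 and 39.1 CPM in Ctrl and between 50.9 and 63.4 CPM in Qk-iCKO lenses. Of 3 tested, 1, Nes, was called higher (2.19, SE 0.35, adjusted p = 0.00871 in edgeR). Most of the Ctrl sum came from Sox2, Gfap and Nes, with means of 22.2, 8.65 and 6.03 CPM. The paper reports Nestin and GFAP staining in lens epithelial cells, and Sox2 also counts among the lens markers. This sum therefore need not mark another cell type. Lens markers summed to between 197000 and 217000 CPM in Ctrl and between 110000 and 176000 CPM in Qk-iCKO lenses. The sum was lowest in Qk-iCKO lens 1, whose TMM factor was 1.48 against 0.888 to 0.962 in the others. Most of it was Cryaa, with means of 159000 CPM in Ctrl and 124000 CPM in Qk-iCKO lenses, which was not called (−0.36, SE 0.37). Of 12 lens markers tested, 0 were called higher and 1, Mip, lower (−1.69, SE 0.37, adjusted p = 0.0259 in edgeR). The part of these shifts in the lens values of Peg3 and its neighbours was not tested, and in bulk tissue fewer cells of a type and less RNA per cell cannot be told apart.

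Of the mouse genes of the region, Zfp28 and Peg3 included, 4 were tested in the lens, 2 were called higher and 0 lower, against 8.38% and 3.88% of 12201 genes tested. All 4 had log2 fold changes above 0, with a median of 1.75. Zfp28, Zfp667 and Zim1 had few reads and passed the read filter only through the Qk-iCKO group. Nothing is therefore read from the shared direction, the median or the share called. Beside Peg3, the gene called was Zfp667, with 3, 2 and 4 reads in Ctrl and 23, 15 and 15 in Qk-iCKO lenses 1 to 3 (log2 fold change 2.67, SE 0.39; edgeR, adjusted p = 0.00603). Its human counterpart ZNF667 had no read in HLE-B3. Zim1, an imprinted zinc finger gene, had 1, 2 and 9 reads in Ctrl and 39, 11 and 9 in Qk-iCKO lenses (2.33, SE 0.70; edgeR, adjusted p = 0.0745). Zfp583, Zfp78, Usp29 and Zim3 had at most 18 reads in any lens and were not tested, and Zim2 had none.

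In the NLPCs 8 genes of the region were tested, 1 was called higher and 0 lower, against 4.74% and 5.96% of 20371 genes, and 7 of the 8 were above 0, with a median of 0.45. The highest of the 8 log2 fold changes, 2.97, belonged to 1 of Zim2, Zim3 and Zfp264, whose NLPC reads are not given here. It was not called. The gene called was Zfp78, the gene next to Zfp28, with 410, 200 and 379 reads in WT libraries 1 to 3 and 526, 296 and 541 in those labelled Qk-/- (0.82, SE 0.16; edgeR, adjusted p = 0.0169). The call was lost when any 1 of 5 libraries was left out, all but the library labelled Qk-/- 2 (edgeR, adjusted p from 0.0533 to 0.11). Zfp583 (0.83, SE 0.27; edgeR, adjusted p = 0.0887), Usp29 (0.59, SE 0.16; edgeR, adjusted p = 0.0524) and Zfp667 (0.08, SE 0.21; edgeR, adjusted p = 0.838) were not called. Summed neural stem cell markers were between 4030 and 4420 CPM in WT and between 2680 and 3260 CPM in the libraries labelled Qk-/-. Of the 6 markers, Gfap (−1.38) and Sox2 (−0.34) were called lower and Dcx (1.02) higher, while Nes, Fabp7 and Olig2 were not called; their part in the values of Zfp78 and its neighbours was not tested.

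**Figure D5:**
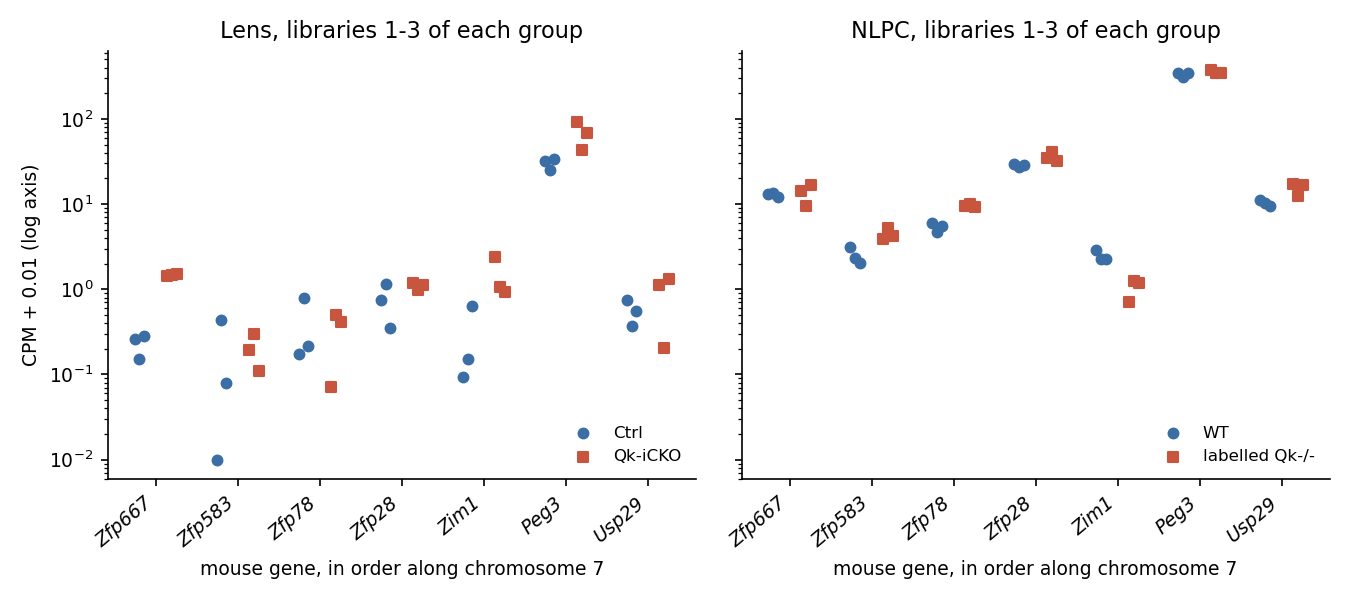
CPM plus 0.01 (log axis) of 7 mouse genes in their order along chromosome 7, per library, in the lens (left) and the NLPCs (right), with Ctrl and WT libraries as circles and Qk-iCKO libraries and those labelled Qk-/- as squares. Zfp28 is expressed in every library of both systems and Peg3 is the highest of the 7 genes, rising from 30.2 to 67.5 CPM on average in the lens.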

How the data were processed

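The authors isolated total RNA (RNeasy Mini Kit), made stranded Illumina libraries, aligned reads with 2-pass STAR 2.6.1b to mm10 or hg19 and counted them per gene with HTSeq 0.11.0; the submitters' processing notes also list HISAT2 2.0.4 and featureCounts without a role. What was deposited are unnormalized gene counts in 1 table per system, and all 18 libraries were used. Genes were placed by Ensembl ID on GENCODE for GRCh37 (59899 of 60880 matched) and GRCm38.

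Each system had its own 2-group model in edgeR 4.0.16 (R 4.3.3; glmQLFit and glmQLFTest, TMM, filterByExpr with minimums of 10 and 15 counts). Benjamini-Hochberg adjustment ran across every tested gene of a system, and genes under 0.05 were called. The steps were tested on simulated counts. An exact permutation test of 3 against 3 libraries cannot go below p = 0.1. SD values give the spread between libraries. SE values were derived as the absolute log2 fold change divided by the square root of edgeR's F statistic, which includes that spread. A gene at 0 was given a floor of 3 reads per library, which covers counting error only.

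The members and gene lists were chosen with earlier results of these data known. By rule, all members, mouse counterparts and antisense genes bearing a member's name were to be named. Of the counterparts, NLPC values of Zim2, Zim3 and Zfp264 are not given, and Zfp264 had no entry by that symbol among the lens genes. The 6 neighbours within 1 Mb and the 6 genes of the silencing list with the largest absolute change were named. The 5 genes nearest to ZFP28 in log2 CPM (prior count 2) were named too. Deviations of same-numbered libraries had correlations of 0.233, 0.133 and 0.523 in the lens and 0.123, 0.32 and 0.145 in the NLPCs. In HLE-B3 they were 0.061, 0.057 and −0.049. Lens Ctrl library 2 correlated more with a Qk-iCKO library of another number (0.279). NLPC WT library 1 did so as well (0.232). A pairing by number was thus not established by these values, and no label gives one. Alternatives were RLE factors, total counts, 2 other filters, DESeq2 1.42.0, the replicate block, leaving out each library, and windows of 0.5 and 2 Mb. The start region of 1 member is not reported here.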

Additional observations from a re-analysis of the deposited data

Results flagged for a closer look

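Zim1, an imprinted zinc finger gene of the Peg3 domain, moved in opposite directions in the mouse systems. Its log2 fold change was 2.33 in the lens, where every Qk-iCKO library lay above every Ctrl library in CPM, and −1.27 in the NLPCs, where it had 199, 96 and 157 reads in WT libraries 1 to 3 and 39, 36 and 70 in the libraries labelled Qk-/-. Neither change passed the threshold in edgeR (adjusted p = 0.0745 and 0.0747). The difference between the systems was not tested.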

How the results depend on the processing

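The lower bound for ZFP28 stayed between 122 and 139 over the alternatives run, and the log2 fold changes of ZNF470 and ZNF71 ran from 1.74 to 2.30 and from 0.39 to 0.58, given as a description since this contrast chose them. The number of neighbours called higher was 14, between 12 and 15 under the other fits, 1 in a window of 0.5 Mb and 42 in a window of 2 Mb, where 3 were called lower in place of 0; a wider window tests more genes. Genes off in WT and on in QKI KO numbered 6, and 4 with limits of 10 and 100 reads. The number of genes called in the lens was 1496, but 884 with total counts, 2521 with every gene of at least 1 count, and 581 to 1709 with 1 library left out. With total counts 86.9% of lens calls were higher in place of 68.4%, and the median of all lens genes moved from 0.006 to 0.292. In the NLPCs 2179 genes were called, 3841 by DESeq2 and 681 to 3797 with 1 library left out. Lens Peg3 (1.16) was 1.54 and no longer called with total counts, and 0.89 to 1.39 with 1 library left out. NLPC Zfp667 (0.08) was −0.12 without the library labelled Qk-/- 3, and 0.29 at most. Lens Zim1 passed in DESeq2 and with every gene of at least 1 count, NLPC Zim1 in DESeq2 and without the library labelled Qk-/- 2, NLPC Zfp583 in DESeq2, and NLPC Usp29 in 6 of 12 alternatives. The causes were not tested.

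With the replicate block 1982 lens genes, 2018 NLPC genes and 5901 HLE-B3 genes were called, Peg3 was 1.11 in the lens, and the calls of Zfp28, Peg3, Zfp667 and Zim1 in the lens and of these and Usp29, Zfp78 and Zfp583 in the NLPCs were as without it; other single genes were not read out with the block. Same-numbered HLE-B3 libraries share only a number, and in the lens and NLPCs a pairing by number was not established. Depth limits the lens most, where Zfp28 had 5 to 19 reads, and 7 members had too few reads for any comparison.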
